A study of Homo sapiens with 6 samples.

Results

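Expression of 37 genes of cholesterol and fatty acid synthesis was compared between A375 human melanoma cells overexpressing HMGB2 (HMGB2OE, 3 libraries) and A375 cells carrying an empty vector (3 libraries). The genes were listed by name and role, among 58302 gene IDs in the count tables, and comprise 8 mevalonate and isoprenoid enzymes, 11 enzymes from squalene to cholesterol, 5 genes of SREBP control, 6 genes of sterol transport and LXR response, and 7 genes of fatty acid synthesis. A375 is an established line grown from a human melanoma, and HMGB2 is an abundant chromatin protein that bends DNA. Both lines were made by lentiviral transduction and carried the vector stably; HMGB2OE cells also carried the HMGB2 insert. The 3 libraries of a group came from separate pellets of a line, which the study's reporting form calls technical replicates, so each p-value below measures the spread between pellets and not between independent transductions. The assay was RNA sequencing of poly(A)-selected RNA from whole pellets, in which a lower RNA content per cell and a smaller share of expressing cells cannot be told apart.

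Cells build cholesterol from acetyl-CoA through mevalonate, isoprenoid units, squalene and lanosterol, and build fatty acids from the same precursor. The SREBP transcription factors, encoded by SREBF1 and SREBF2, are held in the endoplasmic reticulum by SCAP and INSIG proteins while sterols are plentiful. When sterols fall, SCAP escorts SREBP to the Golgi, where it is cleaved, and the released factor raises transcription of the synthesis genes. LXR receptors respond to excess sterol and raise genes of cholesterol export. SREBP activity is set by cleavage, which was not measured here, and not by the level of the SREBF transcripts alone.

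SREBP acts at sterol regulatory elements in promoters, generally beside a CCAAT box, the site of the factor NF-Y. Promoter sequence was therefore read from RefSeq (GRCh38.p14) for the genes on which the results below turn, as the 250 bases before a transcription start. HMGCS1 and SCD are shown because they were called higher with HMGB2OE. SREBF2 is shown because, among the 32 members with a window, it alone had a full match to the element. HMGCS1 and SREBF2 were picked for printing after their values were seen. Each is written 5′ to 3′ on the strand of the gene, and capitals mark the letters CCAAT, TCACNCCAC or CACNCCAC on either strand.
HMGCS1 (chr5:43313413-43313662, minus strand): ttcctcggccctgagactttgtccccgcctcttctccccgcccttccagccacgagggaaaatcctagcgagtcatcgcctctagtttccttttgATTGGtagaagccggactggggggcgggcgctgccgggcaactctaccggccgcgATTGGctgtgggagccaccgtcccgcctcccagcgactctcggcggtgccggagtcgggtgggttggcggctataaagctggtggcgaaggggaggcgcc
SCD (chr10:100346983-100347232, plus strand): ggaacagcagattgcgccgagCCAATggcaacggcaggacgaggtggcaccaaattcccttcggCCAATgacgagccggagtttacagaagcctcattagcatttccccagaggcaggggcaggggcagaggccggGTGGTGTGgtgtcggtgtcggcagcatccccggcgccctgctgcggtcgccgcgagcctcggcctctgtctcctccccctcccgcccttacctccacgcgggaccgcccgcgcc
SREBF2 (chr22:41832855-41833104, plus strand): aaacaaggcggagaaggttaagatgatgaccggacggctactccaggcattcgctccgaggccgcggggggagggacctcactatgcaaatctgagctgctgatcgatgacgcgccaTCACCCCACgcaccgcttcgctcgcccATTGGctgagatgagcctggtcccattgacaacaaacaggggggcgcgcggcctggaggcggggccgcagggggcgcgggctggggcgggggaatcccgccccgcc
The printed HMGCS1 window holds 2 CCAAT boxes on the opposite strand, with first bases 155 and 100 before the start, and no match to the element. The other HMGCS1 window in RefSeq, not printed, holds neither CCAAT nor the element. The SCD window holds CCAAT at 229 and 186 before the start and a match to CACNCCAC on the opposite strand at 114. The SREBF2 window holds the full TCACNCCAC at 133 before the start and CCAAT on the opposite strand at 106. Windows of INSIG2, the remaining called member, hold neither.

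Motif letters were searched on both strands of 45 windows, each from 250 bases before to 50 bases after a start, that RefSeq gave for 32 of the 37 members. ACAT2, FDFT1, SQLE, ABCG1 and FASN had no window in the table. CCAAT occurred in 27 member windows (60%), against 34.6% of 35116 windows of all genes and 34.3% of 18472 windows of the genes tested here. CACNCCAC, the core of the element, occurred in 8 member windows (17.8%), against 5.87% of all windows and 5.97% of those of tested genes. These lay in IDI1, SC5D, SREBF2, INSIG1, ABCA1, ACACA and SCD. The full TCACNCCAC, which contains that core, occurred in 1 member window (2.22%), against 1.13% and 1.06%. The E-box CACGTG occurred in 6 member windows (13.3%), against 7.26% and 8.95%, and the GC box GGGCGG in 40 (88.9%), against 45% and 62.9%. A match is a run of letters and not a binding site, and a window without it says nothing of the factor.

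HMGB2 itself had normalized counts (reads divided by a size factor per library) of 7250.1, 7729 and 7562 in the empty vector group, always listed in the order of replicates 1 to 3, and 15095, 16848 and 14609 in HMGB2OE (log2FC 1.05 ± 0.10 SE, DESeq2 adjusted p = 4.4e-22), so each library carried the level its label gives; reads of the insert and of the cell's own gene cannot be told apart. The number of reads assigned to genes lay between 45925053 and 56755212 per library. Of 8 melanocyte and melanoma markers, MITF and S100B were well detected, MLANA, TYR, DCT and TYRP1 were at or near 0, and SOX10 and PMEL, which kept almost none of their stranded reads in the count used, cannot be judged. The leukocyte markers summed to between 0 and 5.31 normalized counts per library, and no marker of another cell type passed the test with all 6 libraries. Empty vector replicate 3 stood apart from the other empty vector libraries. KRT5, a keratin of basal epithelium, was at 5.05, 11.5 and 279 in the empty vector libraries and 249.8, 199.9 and 289 in HMGB2OE, while the 3 keratinocyte markers together summed to between 454 and 921 in empty vector and between 670.4 and 984 in HMGB2OE libraries, with KRT1 at 0. The 4 fibroblast markers summed to between 2050 and 3676 and between 3317 and 4532, of which most was the collagen gene COL1A1. DCN lay the other way without overlap, at 159.6, 144 and 137 against 99, 90.6 and 122 (log2FC -0.51 ± 0.21, adjusted p = 0.184), and LUM had a log2FC of -0.09. Without empty vector replicate 3, KRT5 (log2FC 4.86, adjusted p = 2.87e-29) and COL1A1 (0.82, 5.92e-07) passed the test, whereas KRT14 (0.18, 0.557), COL3A1 (0.77, 0.315), DCN (-0.55, 0.106) and LUM (0.17, 0.732) did not. The part of these markers in the results was not tested. Each result below is therefore given for all 6 libraries and, where it changes, without empty vector replicate 3.

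With all 6 libraries, 3 of the 37 members were called higher with HMGB2OE (DESeq2 Wald test, Benjamini-Hochberg adjusted p under 0.05), against a background of 2.29% of 18836 genes tested, and none was called lower, against 2.64%. The members called were HMGCS1, which makes HMG-CoA, INSIG2, an endoplasmic reticulum anchor of SCAP, and SCD, which desaturates fatty acids. The 0 lower calls compare with 1 member at an unadjusted p under 0.05, NPC1, and with 0 in edgeR. All 37 members received an adjusted p. Of these, 28 (75.7%) had a log2FC above 0, against 50.4% of all genes tested, and the median log2FC was 0.16, against 0.00. The members were chosen with earlier results of these data known, so differences between members and all genes are only described. No member reached 1.5-fold in either direction. In 9 members (24.3%) every HMGB2OE library lay above every empty vector library, against 11.1% of genes tested, and in 4 members (10.8%) every HMGB2OE library lay below, against 10.7%. The remaining 24 members had overlapping groups.

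**Figure D1:**
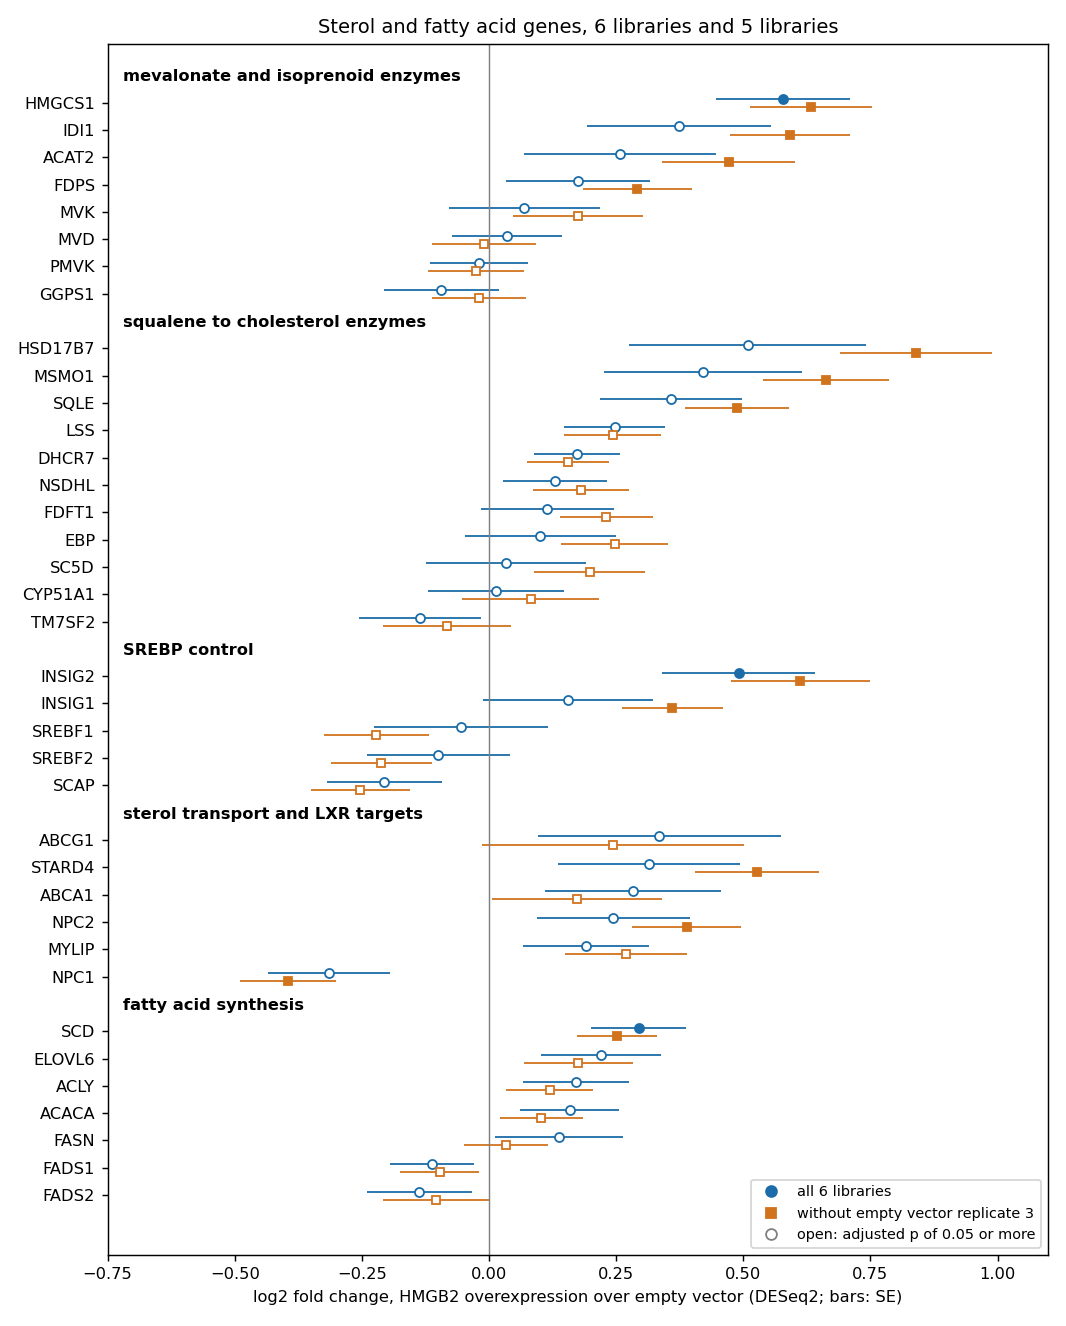
Log2 fold change of HMGB2OE over empty vector for the 37 members, grouped by role, with all 6 libraries (circles) and without empty vector replicate 3 (squares). Bars are the standard error of the DESeq2 fit, and filled symbols had an adjusted p under 0.05. With all libraries, HMGCS1, INSIG2 and SCD are filled; without empty vector replicate 3, 13 members are.

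Among the 8 mevalonate and isoprenoid enzymes, 1 was called higher and none lower, 6 had a log2FC above 0, and the median was 0.12. Without empty vector replicate 3, 4 were called higher, against 8.31% of all genes tested in that fit, and the median was 0.23. HMGCS1, the cytosolic HMG-CoA synthase at the entry to the pathway, had normalized counts of 1052, 1308 and 1318 in empty vector libraries and 1747, 1763 and 1983 in HMGB2OE libraries. The groups did not overlap, and the lowest empty vector value was that of replicate 1. HMGCS1 rose 1.49-fold (log2FC 0.58 ± 0.13 SE, adjusted p = 0.000731), the largest log2FC among the members, and it was the single member called in each of the 15 alternative fits, with adjusted p from 2.27e-08 to 0.0439. It lies on chromosome 5 at 43287470-43313512 (hg38, minus strand) and shares exonic positions with the lncRNA ENSG00000261604 on the opposite strand, and the count used kept 79.7% of its stranded reads.

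The other enzymes of this arm were not called with all 6 libraries. ACAT2, the cytosolic thiolase that joins acetyl-CoA units, had 1298, 1412 and 2005 normalized counts in empty vector and 1640.5, 1758 and 2239.6 in HMGB2OE libraries (log2FC 0.26 ± 0.19, adjusted p = 0.617). Its groups overlapped because empty vector replicate 3 lay above HMGB2OE replicates 1 and 2. FDPS, which makes farnesyl diphosphate, had 2733, 2835 and 3489 against 3107, 3261 and 3854 (log2FC 0.17 ± 0.14, adjusted p = 0.672), with the same placement of empty vector replicate 3. MVK, the mevalonate kinase, had 1061, 862 and 1178 against 990.1, 1107 and 1156 (log2FC 0.07 ± 0.15, adjusted p = 0.914), and the groups overlapped throughout.
ACAT2, FDPS and MVK each overlap a gene on the opposite strand (TCP1, RUSC1-AS1 and MMAB) and kept 34.9%, 24.3% and 43.1% of their stranded reads. In the sum of the stranded columns, which keeps those reads but shares them with the other gene, their log2FC was 0.29, 0.14 and 0.09, and none was called.
IDI1, which isomerizes the isoprenoid unit, had a log2FC of 0.37 ± 0.18 (adjusted p = 0.303). PMVK (-0.02) and MVD (0.04), which act between MVK and IDI1, and GGPS1 (-0.09), which makes geranylgeranyl diphosphate, had log2FC values near 0.

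None of the 11 enzymes from squalene to cholesterol was called with all 6 libraries, although 10 had a log2FC above 0 (median 0.13). Without empty vector replicate 3, 3 were called higher, against 8.31% of all genes tested in that fit, and the median was 0.23. HSD17B7, the sterol ketoreductase, had the largest log2FC of the group, with 562, 609 and 1039.9 normalized counts in empty vector libraries and 919, 951 and 1274 in HMGB2OE libraries (log2FC 0.51 ± 0.23, adjusted p = 0.258). Empty vector replicate 3 lay above HMGB2OE replicates 1 and 2, while the other empty vector libraries lay below every HMGB2OE library. Of all stretches of 50 bases in annotated HSD17B7 transcripts, 14.4% also occur elsewhere in the transcriptome, mainly in its pseudogenes, so its count is less certain.
SQLE is the squalene epoxidase, LSS closes the sterol rings, and DHCR7 reduces a double bond of the B ring. These enzymes did not overlap between groups but missed the threshold (in that order, log2FC 0.36, 0.25 and 0.17, DESeq2 adjusted p = 0.135, 0.156 and 0.31). LSS was steady within groups, at 2514, 2584 and 2528 in empty vector and 2805, 3139 and 3108 in HMGB2OE libraries. DHCR7 was at 8556, 8553 and 8219 against 9404, 9443 and 9725. With a term for the libraries numbered 3, LSS and DHCR7 were called higher (adjusted p = 0.00785 and 0.0206).
MSMO1, the sterol C4 oxidase, had a log2FC of 0.42 ± 0.19 (adjusted p = 0.267), with overlapping groups. FDFT1 (0.11), which makes squalene, and the later sterol enzymes NSDHL (0.13), EBP (0.10) and SC5D (0.03) had smaller positive log2FC values. CYP51A1, the lanosterol demethylase, was at 0.01, and 15.0% of its 50-base stretches occur elsewhere, mainly in pseudogenes. TM7SF2, a sterol C14 reductase, was the single member of the group with a log2FC below 0 (-0.14 ± 0.12, adjusted p = 0.719), and its groups did not overlap.

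Of the 5 genes of SREBP control, INSIG2 was called higher and none lower, and the median log2FC was -0.06, or -0.21 without empty vector replicate 3. INSIG2 (chr2:118088452-118110997, plus strand) had 449.5, 437 and 561 normalized counts in empty vector libraries and 632, 657 and 744 in HMGB2OE libraries. Its groups did not overlap, and replicate 3 was the highest in each. INSIG2 rose 1.41-fold (log2FC 0.49 ± 0.15, adjusted p = 0.0285), and it was called in 9 of the 15 alternatives, over which its adjusted p ran from 0.000145 to 0.343.
INSIG1, the paralogue that is itself a strong SREBP target, had 4243, 4119 and 6096 against 4957, 5175 and 5970.5 (log2FC 0.16 ± 0.17, adjusted p = 0.788). The highest INSIG1 count of all belonged to empty vector replicate 3, and the other empty vector libraries lay below every HMGB2OE library.

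SREBF1, which encodes the SREBP of fatty acid genes, had 10566, 9883 and 6866 normalized counts in empty vector and 8785, 9756 and 7752 in HMGB2OE libraries (log2FC -0.06 ± 0.17, adjusted p = 0.947). Empty vector replicate 3 was the lowest of the 6. SREBF2, which encodes the SREBP of sterol genes, had 12098, 11610.4 and 9181 against 10530.5, 11108 and 9055 (log2FC -0.10 ± 0.14, adjusted p = 0.856). Replicate 3 was the lowest in each group, and the groups overlapped. SCAP, the escort of both, had 8604, 7992 and 7475 against 7057, 7509 and 6302 (log2FC -0.21 ± 0.11, adjusted p = 0.414), and a single pair of libraries kept its groups from separating: HMGB2OE replicate 2 lay above empty vector replicate 3.

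**Figure D2:**
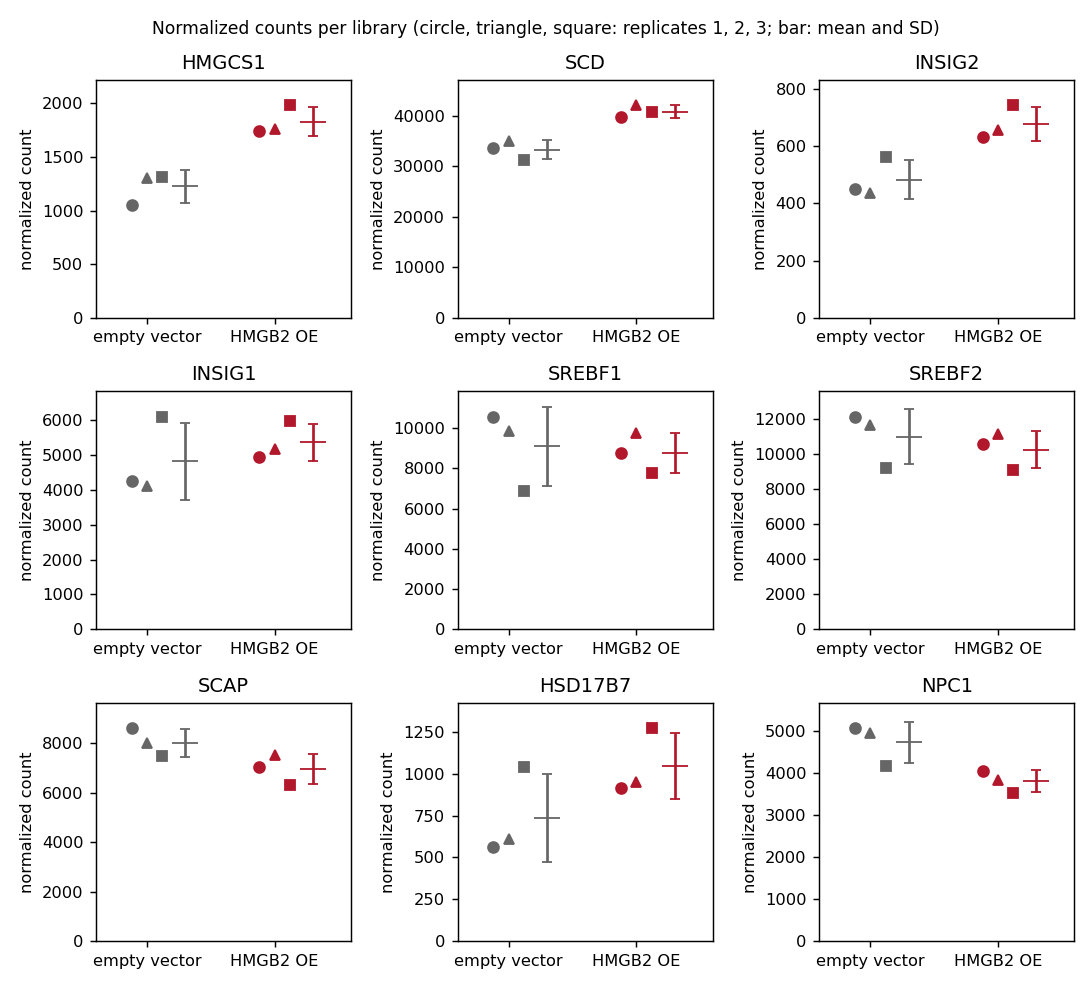
Normalized counts of 9 members in each library, with empty vector in grey and HMGB2OE in red. Circles, triangles and squares are replicates 1, 2 and 3, and bars show the mean and SD of 3 libraries on axes that start at 0. For INSIG1 and HSD17B7 the empty vector square lies above or within the HMGB2OE range, whereas for HMGCS1 and SCD all empty vector libraries lie below.

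Among the 6 genes of sterol transport and LXR response, none was called with all 6 libraries, 5 had a log2FC above 0, and the median was 0.26. ABCG1, an LXR-responsive exporter, had the largest, with 132, 106 and 96.6 normalized counts in empty vector and 156, 158 and 108 in HMGB2OE libraries (log2FC 0.33 ± 0.24, adjusted p = 0.601). In each group replicate 3 was the lowest, and HMGB2OE replicate 3 lay within the empty vector range. ABCA1, the exporter that loads apolipoprotein A1 (0.28 ± 0.17), and STARD4, which carries sterol between membranes (0.31 ± 0.18), also overlapped, as did NPC2, the soluble lysosomal sterol carrier (0.24 ± 0.15). MYLIP, an LXR-induced ubiquitin ligase of lipoprotein receptors, did not overlap between groups (0.19 ± 0.12, adjusted p = 0.538).
NPC1, the membrane partner of NPC2 in lysosomal sterol export, lay the other way. It had 5051, 4933 and 4165 normalized counts in empty vector and 4038, 3832 and 3511 in HMGB2OE libraries, without overlap (log2FC -0.31 ± 0.12, adjusted p = 0.122).

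Of the 7 genes of fatty acid synthesis, SCD was called higher and none lower, 5 had a log2FC above 0, and the median was 0.16. SCD (chr10:100347233-100364826, plus strand), the stearoyl-CoA desaturase, had 33551, 35099 and 31280.4 normalized counts in empty vector libraries and 39711, 42096 and 40757 in HMGB2OE libraries. The groups were well apart, and every HMGB2OE library was above the highest empty vector library, replicate 2. SCD rose 1.23-fold (log2FC 0.29 ± 0.09, adjusted p = 0.0363), and it was called in 8 of the 15 alternatives, with adjusted p from 1.26e-05 to 0.421. Of its 50-base stretches, 4.52% occur elsewhere, in part in the pseudogene SCDP1.
ACLY, which makes cytosolic acetyl-CoA (0.17 ± 0.10, adjusted p = 0.485), and ACACA, which makes malonyl-CoA (0.16 ± 0.10, adjusted p = 0.499), did not overlap between groups. FASN, the synthase (0.14 ± 0.13), and ELOVL6, an elongase (0.22 ± 0.12), overlapped. The desaturases of polyunsaturated fatty acids lay below 0. FADS2 had 1410.2, 1367 and 1481 normalized counts in empty vector and 1263, 1348 and 1260.5 in HMGB2OE libraries (log2FC -0.14 ± 0.10, adjusted p = 0.635). Each HMGB2OE library was lower than each empty vector library, as for FADS1 (log2FC -0.11 ± 0.08, adjusted p = 0.617). FADS1 and FADS2 overlap on opposite strands, and FADS2 kept 36.7% of its stranded reads (log2FC -0.12 in the stranded sum).

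Levels between genes were compared as RPKM, the reads of a gene scaled to its exon length and to the assigned reads of the library. SCD stood highest in both groups, at 126 ± 8.46 in empty vector and 154 ± 5.78 in HMGB2OE libraries (SD, n = 3). FASN followed at 74.5 ± 10.7 and 81.6 ± 5.45, within its SD of ACLY (65.3 ± 5.51 in empty vector) but not of SCD. HMGCS1 was among the lower genes at 3.66 ± 0.427 and 5.44 ± 0.302, and INSIG2 stood below INSIG1 at 2.42 ± 0.314 against 26.1 ± 5.67 in empty vector libraries. SREBF2 (27 ± 4.13) and SREBF1 (21.9 ± 4.95) had overlapping SD ranges. The exporters were lowest, ABCA1 at 0.505 ± 0.0976 and ABCG1 at 0.362 ± 0.0632 in empty vector libraries.

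**Figure D3:**
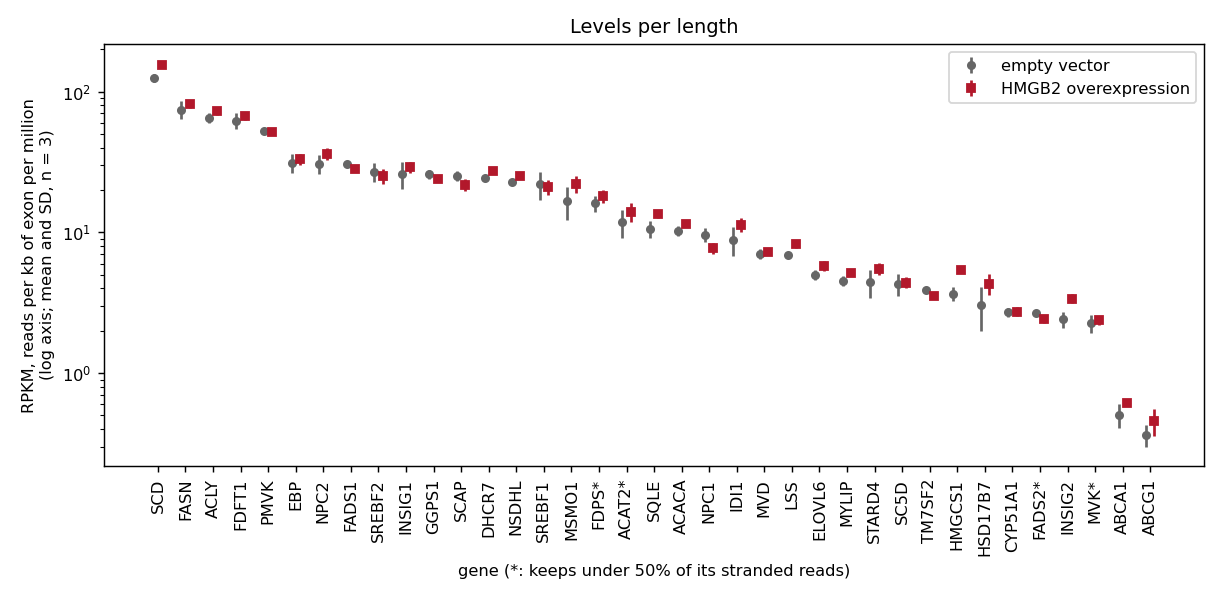
Level of each member per length, as RPKM (reads scaled to exon length and to the assigned reads of the library) on a log axis, with empty vector in grey and HMGB2OE in red (mean and SD, n = 3). Genes are ordered by their empty vector level, from SCD down to ABCG1, and asterisks mark the 4 members that kept under 50% of their stranded reads, whose levels are underestimates.

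The libraries numbered 3 lay apart from the others for the sterol genes. Of the 19 mevalonate and sterol enzymes, 15 (78.9%) were highest in replicate 3 among the empty vector libraries, against 41.9% of all genes tested, and 15 were highest in replicate 3 among the HMGB2OE libraries, against 38.8%. Their median log2 difference between empty vector replicate 3 and the mean of the other empty vector libraries was 0.30. HMGB2OE replicates 1 and 2 exceeded empty vector replicates 1 and 2 by a median of 0.16, and the HMGB2OE libraries differed from empty vector replicate 3 by a median of -0.01. That median covers enzymes on both sides. Empty vector replicate 3 lay below every HMGB2OE library for HMGCS1, SQLE, LSS, DHCR7 and MVD. It lay above at least 1 HMGB2OE library for each of the other enzymes, with MSMO1, IDI1, ACAT2 and HSD17B7 among them.
HSD17B7 (0.83), MSMO1 (0.64), IDI1 (0.57) and ACAT2 (0.57) showed the largest log2 differences among the enzymes between empty vector replicate 3 and the other empty vector libraries. HMGCS1 (0.17), LSS (-0.01) and DHCR7 (-0.06) differed less. INSIG1 (0.54) and STARD4 (0.56) lay on the same side as the enzymes, whereas SREBF1 (-0.57) and SREBF2 (-0.37) lay the other way. For HMGB2OE replicate 3 against replicates 1 and 2 the corresponding values were 0.45 for HSD17B7, -0.26 for SREBF1 and -0.26 for SREBF2.
Fatty acid genes did not share the placement. Empty vector replicate 3 was the lowest of its group in 5 of 7 (71.4%), against 40.9% of all genes tested, with a median difference of -0.14. HMGB2OE replicate 3 was the lowest of its group in 4 (57.1%), against 39.3% of all genes tested, and the highest in 0. The labels give no batch for these libraries, and what set the third ones apart was not tested.

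**Figure D4:**
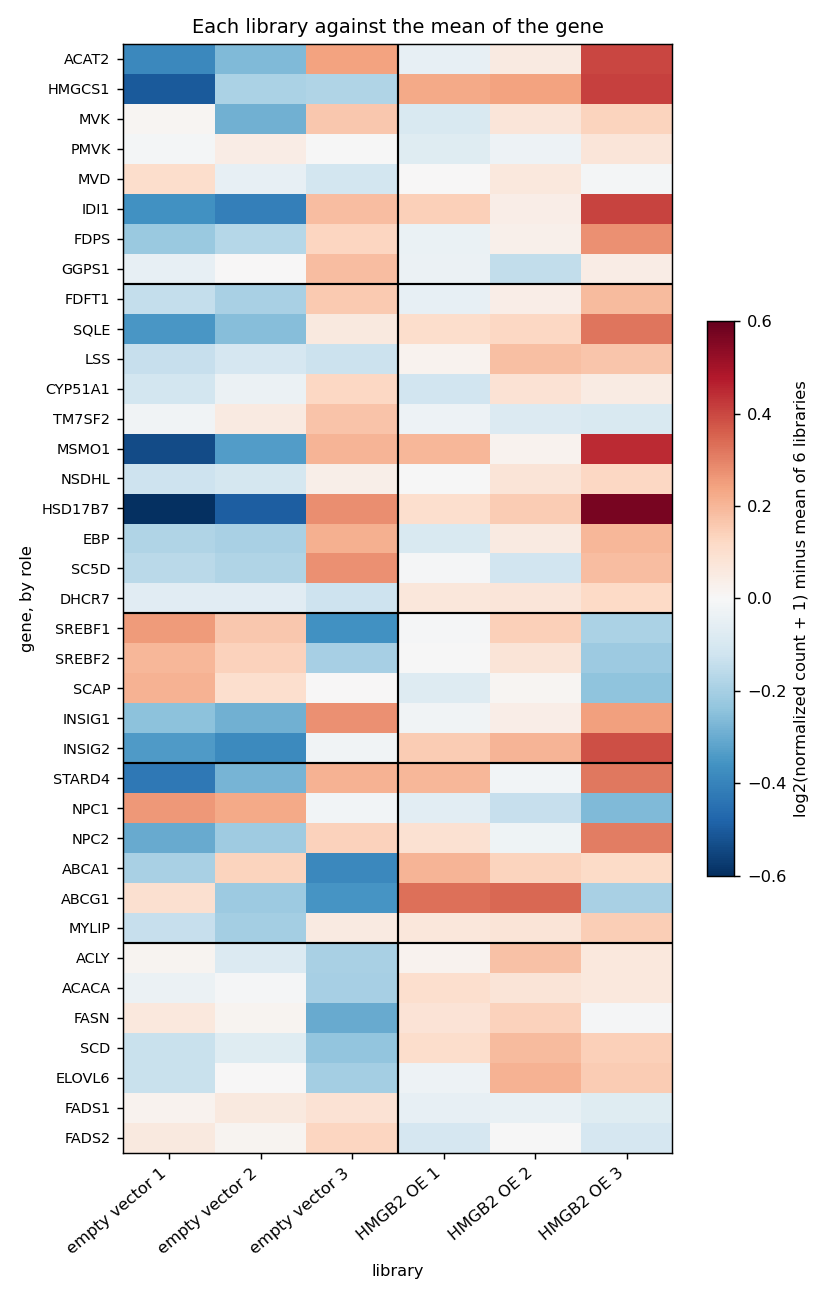
Heat map of log2(normalized count + 1) in each library minus the mean of the gene over the 6 libraries, from -0.6 (blue) to 0.6 (red), with members in rows by role and libraries in columns. The column of empty vector replicate 3 is the highest of the empty vector columns for 15 of the 19 sterol enzymes and the lowest for SREBF1 and SREBF2.

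Without empty vector replicate 3, 12 of the 37 members were called higher, against 8.31% of 16062 genes tested, and 1 lower, against 9.46% (DESeq2, adjusted p under 0.05). HMGB2OE replicate 3 stayed in this fit, although it was the highest of its group for 15 of the 19 sterol enzymes. The share of all genes called was also larger, and the median log2FC over all members was 0.18, against 0.16 with all libraries, while the role groups shifted in different directions. The median went from 0.12 to 0.23 for the mevalonate and isoprenoid enzymes, from 0.13 to 0.23 for the enzymes from squalene to cholesterol, from -0.06 to -0.21 for SREBP control and from 0.16 to 0.10 for fatty acid synthesis. It was 0.26 in both fits for sterol transport and LXR response. These shifts follow the placement of empty vector replicate 3 described above and are no separate result. With replicates 1 and 2 alone, the medians were 0.16 for both enzyme groups and -0.13 for SREBP control. They were 0.11 for fatty acid synthesis and 0.27 for sterol transport and LXR response. HMGCS1 (0.63 ± 0.12, adjusted p = 6.13e-06), INSIG2 (0.61 ± 0.14, 0.0002) and SCD (0.25 ± 0.08, 0.0125) were still called. Of the sterol enzymes, IDI1 (0.59 ± 0.12), ACAT2 (0.47 ± 0.13), FDPS (0.29 ± 0.11), HSD17B7 (0.84 ± 0.15), MSMO1 (0.66 ± 0.12) and SQLE (0.49 ± 0.10) were added, with adjusted p from 1.04e-06 for HSD17B7 to 0.0412 for FDPS. INSIG1 (0.36 ± 0.10, adjusted p = 0.00406), STARD4 (0.53 ± 0.12, 0.000366) and NPC2 (0.39 ± 0.11, 0.00411) were also called higher. NPC1 was the single member called lower (-0.39 ± 0.09, adjusted p = 0.000562). SREBF1 (-0.22 ± 0.10, adjusted p = 0.126), SREBF2 (-0.21 ± 0.10, 0.129) and SCAP (-0.25 ± 0.10, 0.0518) remained uncalled, with log2FC values below 0.

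Counts per library are given for SQLE, IDI1, MSMO1, STARD4 and NPC2, called higher without empty vector replicate 3 but not with all 6 libraries. That choice favours genes whose empty vector replicates 1 and 2 lie below HMGB2OE libraries, so their placement is only described. SQLE had 2048, 2189 and 2716 normalized counts in empty vector and 2810.4, 2845 and 3259 in HMGB2OE libraries. IDI1 had 1674, 1618 and 2451 against 2376, 2213 and 2852. MSMO1 had 1882, 2164 and 3136 against 3127, 2765 and 3717. In all 3, empty vector replicates 1 and 2 lay below every HMGB2OE library, while replicate 3 was above at least 1 HMGB2OE library for IDI1 and MSMO1 and below all of them for SQLE. STARD4 had 1045, 1158 and 1625 against 1615, 1391 and 1752. NPC2 had 3522, 3742 and 4776 against 4629, 4255 and 5375. Both had the placement of IDI1 and MSMO1.

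Since replicate 3 stood apart in both groups, the libraries numbered 1 and 2 were also compared alone. With 2 libraries a group, 12 members were called higher, against 8.01% of 15028 genes tested, and 2 lower, against 9.44%. The 2 lower were NPC1 (log2FC -0.34, adjusted p = 3.48e-05) and SCAP (-0.19, 0.0412). Of the 12 higher members, FDFT1 (0.16, adjusted p = 0.0467) was new, and FDPS (0.19, 0.0643) was no longer called. Removing any library other than empty vector replicate 3 left 1 member called, HMGCS1. Over all fits, 19 members were called at least once and 18 in none. The share of all genes called at least once was not counted, so these numbers have no background.

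**Figure D5:**
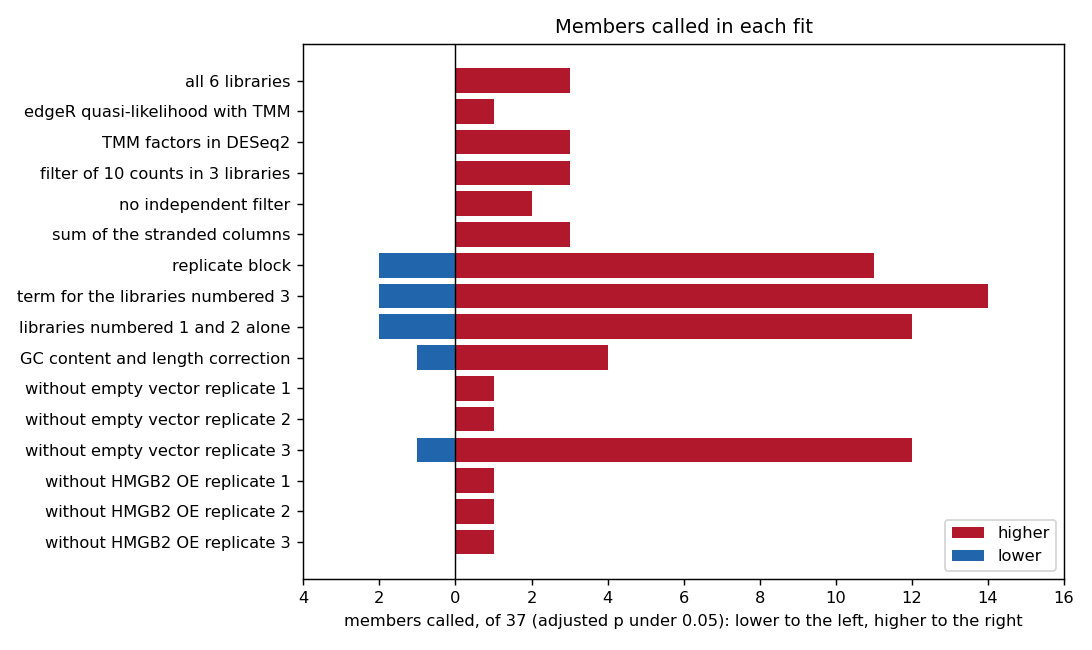
Number of the 37 members called lower (blue, left) and higher (red, right) with HMGB2OE in the fit of all 6 libraries and in each of 15 alternatives, at an adjusted p under 0.05. The count of higher members is 3 with all libraries, 12 without empty vector replicate 3, and 1 when any other library is left out.

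The surrounding pathway was followed in 50 further genes of isoprenoid use, SREBP processing and turnover, sterol uptake and storage, and fatty acid activation and glycerolipid synthesis. Of these, 49 received an adjusted p; THRSP was near 0. With all libraries 1 was called higher and 1 lower, near the background of 2.29% and 2.64% of all genes tested, and the median log2FC was -0.02. LPCAT3, an LXR-responsive lysophospholipid acyltransferase, had 1155, 1203 and 1317 normalized counts in empty vector and 1515, 1505 and 1625 in HMGB2OE libraries (log2FC 0.34 ± 0.11, adjusted p = 0.0441). Its groups did not overlap, but it shares positions with EMG1 on the opposite strand and kept 34% of its stranded reads, and in their sum the log2FC was 0.11 (adjusted p = 0.716). ACSL1, which activates long-chain fatty acids, had 1919, 1919.6 and 1728 against 1405, 1220.4 and 1481, also without overlap (log2FC -0.44 ± 0.12, adjusted p = 0.00949). None of the 10 genes of isoprenoid use (median -0.04) and none of the 10 genes of SREBP processing and turnover (median -0.02) was called in either direction. The 15 genes of sterol uptake, storage and sensing held LPCAT3 (median 0.03), and the 15 of fatty acid activation and glycerolipids held ACSL1 (median -0.03). Without empty vector replicate 3, 5 neighbours were called higher and 2 lower, beside 8.31% and 9.46% of all genes in that fit, with a median of 0.02.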

How the data were processed

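The 6 A375 libraries, 3 per group, were grouped by their titles. Per the labels and the submitters' processing notes, libraries were poly(A)-selected with an unstranded kit, and reads were demultiplexed with bcl2fastq 2.20, checked with FastQC, trimmed with Trimmomatic and aligned with STAR to GRCh38. The authors deposited whole-number read counts per gene, with no normalization. The STAR version and annotation release were not given in the sources used here. Columns for either strand and for each strand were deposited; the first was used, in which reads shared by genes on opposite strands or mapping to several places are counted for none. Of 58302 IDs, 57532 matched GENCODE 44. The 4 summary lines were left out.

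Counts were fitted over all genes with DESeq2 1.42.0 (R 4.3.3, default parameters, independent filter alpha 0.1, unshrunken log2FC), after the study's methods, with a gene called where the p adjusted by Benjamini-Hochberg was under 0.05. The procedure was tested on simulated data, where false calls exceeded the nominal share when each gene's own dispersion was simulated, but not with trended dispersions. The members and lists were chosen with earlier results of these data known. Genes named with counts per library were the called members, the genes of SREBP control, the largest log2FC of each role group, members keeping under 50% of their stranded reads, and called neighbours; counts per library of LSS, DHCR7, NPC1, SQLE, IDI1, MSMO1, STARD4, NPC2, KRT5 and DCN were added after their values were seen. Alternatives were edgeR 4.0.16 (quasi-likelihood, TMM), TMM factors, a filter of 10 counts in 3 libraries, no independent filter, the stranded sum, the replicate number as a block, a term for the libraries numbered 3, replicates 1 and 2 alone, a correction for GC content and length, and leaving out each library. Depth, 45925053 to 56755212 assigned reads, gave every member at least 90.0 reads in each library. How much of the spread between libraries came from counting was not tested. Motif and word shares are descriptions.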

Additional observations from a re-analysis of the deposited data

Results flagged for a closer look

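Multimapped reads, which enter no gene count, made up 4.89% of reads in HMGB2OE replicate 1 and 10.6% in HMGB2OE replicate 3, above the range of 2.58% to 3.96% in the empty vector libraries. HMGB2OE replicate 2 had 3.32%. These reads have no gene assignment in the tables, and their part in the member counts was not tested.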

How the results depend on the processing

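HMGB2 was called higher in all 15 alternatives (log2FC 0.98 to 1.09), and the median log2FC of the members stayed between 0.11 and 0.18. Counts of calls varied more, for causes that were not tested. Members called higher numbered 1 with edgeR, 11 with the replicate block, 14 with a term for the libraries numbered 3, 12 with replicates 1 and 2 alone, and 1 to 12 when 1 library was left out (12 without empty vector replicate 3). Members called lower numbered 2 with the block, 2 with the term, 2 with replicates 1 and 2 alone, 1 with the GC content and length correction, and 0 to 1 on leaving out a library. Pathway neighbours called higher numbered 0 with edgeR, without the independent filter and in the stranded sum, 4 with the block, 5 with the term, 4 with replicates 1 and 2 alone, 2 with the correction, and 0 to 5 on leaving out a library; those called lower numbered 0, with edgeR, then 2 with the block, 2 with the term, 2 with replicates 1 and 2 alone, and 0 to 2. Of all genes, edgeR called 215 higher and 255 lower, the block 886 and 940, the term 1374 and 1359, replicates 1 and 2 alone 1203 and 1418, and the fits that left out a library 155 to 1334 and 208 to 1520. As shares of genes tested, these were 8.01% and 9.44% with replicates 1 and 2 alone, and 8.31% and 9.46% without empty vector replicate 3. No share was computed for the other alternatives, so their member counts have no such background.

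Members near 0 changed sign. With the correction, log2FC was -0.02 for CYP51A1, -0.03 for SC5D and 0.03 for SREBF1. On leaving out a library it ran from -0.05 to 0.17 for MVK, -0.06 to 0.01 for PMVK, -0.01 to 0.10 for MVD, -0.04 to 0.08 for CYP51A1, -0.05 to 0.20 for SC5D and -0.22 to 0.06 for SREBF1. INSIG2 and SCD were not called with edgeR (adjusted p = 0.0921 and 0.106) or when any library but empty vector replicate 3 was left out, and SCD was not called without the independent filter. ACLY was called higher with the term (adjusted p = 0.0449) and FASN with the correction (0.0446).

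Replicate numbers 1 and 2 did not pair the libraries, whereas the libraries numbered 3 deviated together. Deviations from the group mean correlated at 0.0906, 0.142 and 0.349 for numbers 1, 2 and 3 over 16692 genes. HMGB2OE replicates 1 and 2 did not correlate best with their own number. HMGB2OE replicate 3 did, and it correlated at -0.272 and -0.217 with empty vector replicates 1 and 2. The block gave the 11 higher and 2 lower members above, all 3 main calls and LSS (adjusted p = 0.0301) among them.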
